A study of Hordeum vulgare with 10 samples.

Results

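The chitinases of barley roots were examined as all transcripts whose description in the deposited table holds the word chitinase and not kinase, each identifier once. This gave 42 transcripts of 38 loci, of 37962 transcripts in all. The words chosen for beta-1,3-glucanases matched 0 transcripts, because the table's descriptions hold 0 commas and end where a comma would stand. A further 71 transcripts of 66 loci carry the text "Glucan endo-1", which is how the name glucan endo-1,3-beta-glucosidase would begin. They were kept as a separate group, since the cut text does not show the bond that the enzyme cleaves.

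Chitinases cut chitin, the N-acetylglucosamine polymer of fungal cell walls, and plants secrete them or store them in the vacuole. They belong to the pathogenesis-related proteins, and the chitin fragments they release are themselves perceived as microbe-associated molecular patterns by receptors with LysM domains. Beta-1,3-glucanases act on the second main polymer of the fungal wall and, in the plant, on callose. Both enzyme families are large in cereals, and some members act on the plant's own wall during growth.

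RNA was sequenced in 10 libraries from wild-type roots of *Hordeum vulgare* cv Golden Promise, taken at 2 hpt from 7-d-old seedlings. The 3 ergosterol libraries received the fungal sterol at a final concentration of 250 nM, the 4 *S. indica* lipid libraries received a crude lipid extract of the root endophyte *Serendipita indica* at 1 : 160 (v/v) in the well, and the 3 solvent control libraries received methanol alone, which all treatments contained at 1 : 40 (v/v). Each replicate combined 5 mm root pieces from 2 wells, cut without the tip and the uppermost root and left to recover overnight, so every library, controls included, came from cut tissue. Nothing in the labels ties a replicate to its own batch of seedlings, so that the p-values measure the spread between these samples, which may in part be technical.

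Abundance is given as TPM, the length-corrected share of each transcript in a library scaled to a fixed total. TPM sum to 1000000 in every library. Levels can be compared between transcripts, but between libraries only as shares, since a rise of some transcripts lowers the share of the others. The read depth behind a TPM value is unknown, so precision is judged from the replicates alone. In root pieces of mixed cell types, fewer cells of a type and less RNA per cell cannot be told apart. A list of 12 photosynthesis transcripts summed to 3.64 to 5.13 TPM upon ergosterol, 3.22 to 5.64 TPM upon *S. indica* lipids and 4.24 to 8.63 TPM in the solvent control, with 6 of the 12 at 0 in all libraries. No description held the words Casparian strip. The 44 transcripts described as CASP-like protein, a family that includes the endodermal proteins of that barrier and was chosen after the descriptions had been read, summed to between 2010.8 and 2453.6 TPM per library.

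Among the chitinases, 26 of 42 transcripts averaged 1 TPM or more across libraries and were tested. Of these, 6 had a mean of at least 100 TPM, 13 lay between 10 and 100 TPM and 7 between 1 and 10 TPM. Of the 16 transcripts below the limit, 8 were at 0 in all libraries and the other 8 reached at most 1.99 TPM in any library. By description, 17 of 22 transcripts named chitinase were tested, but only 4 of 13 named acidic endochitinase. Both acidic chitinases, 1 of 2 chitinase-like proteins, the chitinase domain-containing protein and the chitinase family protein were also tested, and the endochitinase was at 0 in all libraries.

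The summed level of the 42 chitinases was 2023 ± 176 TPM (SD, n = 3) upon ergosterol, 2117 ± 223 TPM (n = 4) upon *S. indica* lipids and 1920 ± 122 TPM (n = 3) in the solvent control. The libraries of the 3 treatments overlapped, at 1821 to 2145 TPM upon ergosterol, 1874 to 2371 TPM upon *S. indica* lipids and 1833 to 2059 TPM in the solvent control. The mean sums amounted to 0.202%, 0.212% and 0.192% of the TPM in those 3 groups. In every library the 6 most abundant transcripts held between 77.5% and 82.3% of the chitinase sum. Most of the chitinase TPM thus came from a few transcripts, which were abundant in the solvent control too.

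**Figure D1:**
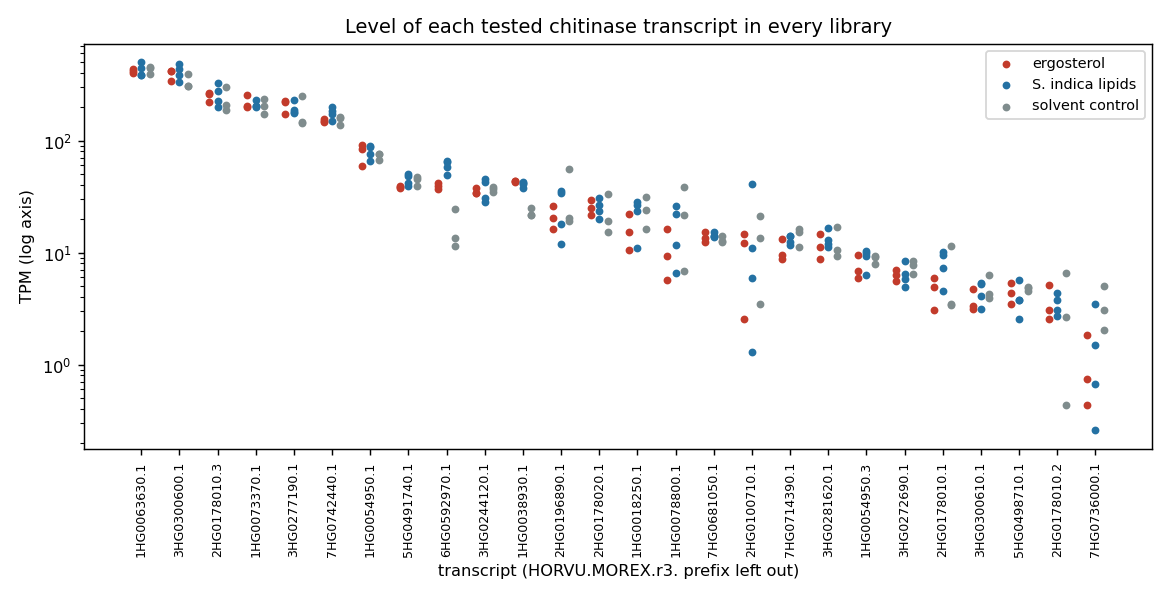
TPM (log axis) of the 26 tested chitinase transcripts, ordered by their mean over all libraries; each point is 1 library, coloured by treatment. The 6 most abundant transcripts lie above 100 TPM in all libraries, and most transcripts show overlapping points of all 3 treatments, with HORVU.MOREX.r3.6HG0592970.1 and HORVU.MOREX.r3.1HG0038930.1 as those whose solvent control points lie below both treatments.

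Of the 26 tested chitinases, 1 rose upon ergosterol and 1 rose upon *S. indica* lipids, and 0 fell in either comparison, by limma, with *p* adjusted after Benjamini-Hochberg over the 18330 transcripts tested and limits of 0.05 on the adjusted *p* and of 1 on the size of the log2FC in either direction. Over all transcripts tested, 1.23% passed upon ergosterol and 1.26% upon *S. indica* lipids: 1.16% rose and 0.0709% fell upon ergosterol, and 1.17% rose and 0.0927% fell upon *S. indica* lipids. The chitinase that rose was the same transcript in both comparisons, the chitinase family protein HORVU.MOREX.r3.6HG0592970.1. At an unadjusted *p* under 0.05 there were 4 chitinases upon ergosterol and 3 upon *S. indica* lipids, against 19.7% and 15.3% of all transcripts tested. The 2 comparisons share their 3 solvent control libraries, so their values are not independent.

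HORVU.MOREX.r3.6HG0592970.1 had 37.2, 39.1 and 41.9 TPM in the ergosterol libraries, 49.0, 57.5, 64.8 and 65.9 TPM in the *S. indica* lipid libraries and 13.4, 24.5 and 11.6 TPM in the solvent control libraries. Every treated library lay above every solvent control library, of which replicate 2 was the highest. The log2FC was 1.28 (adjusted *p* = 0.0102, SE 0.222, limma, 3 of 3 libraries higher) upon ergosterol and 1.85 (adjusted *p* = 0.000658, SE 0.208, 4 of 4 libraries higher) upon *S. indica* lipids. These are 2.42-fold and 3.6-fold changes on the scale of TPM + 1, and they ranked 109 among the 212 called rises upon ergosterol and 33 among the 214 upon *S. indica* lipids.

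For HORVU.MOREX.r3.6HG0592970.1 no ergosterol library reached the lowest *S. indica* lipid library. In the direct comparison its log2FC of ergosterol against *S. indica* lipids was -0.57 (SE 0.208, 95% interval -1.03 to -0.11), with an unadjusted *p* of 0.0195 and an adjusted *p* of 0.907 (limma). This difference did not pass the test over all transcripts. The transcript made up 1.82% to 2.04% of the chitinase sum upon ergosterol, 2.61% to 2.91% upon *S. indica* lipids and 0.619% to 1.19% in the solvent control.

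A second chitinase, HORVU.MOREX.r3.1HG0038930.1, changed by less than the limit on log2FC but with little spread. It had 42.8, 43.2 and 43.9 TPM in the ergosterol libraries, 40.7, 38.1, 42.4 and 41.8 TPM in the *S. indica* lipid libraries and 25.1, 21.7 and 21.8 TPM in the solvent control libraries. All 7 treated libraries lay above all 3 solvent control libraries. The log2FC was 0.89 (adjusted *p* = 0.000400, SE 0.0880, limma) upon ergosterol and 0.81 (adjusted *p* = 0.000384, SE 0.0823) upon *S. indica* lipids, or 1.86-fold and 1.75-fold. By its *p* it ranked 33 and 50 of 18330, ahead of HORVU.MOREX.r3.6HG0592970.1 at 247 and 75, and its spread within treatments was smaller than that of all but 2.2% of the transcripts tested. Between ergosterol and *S. indica* lipids the log2FC was 0.09 (95% interval -0.09 to 0.27, adjusted *p* = 0.979, limma). With both transcripts, 2 of 26 chitinases stayed within 0.05 by adjusted *p* upon either treatment, limit on log2FC aside, where 3.31% of all transcripts did upon ergosterol and 3.87% upon *S. indica* lipids.

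**Figure D2:**
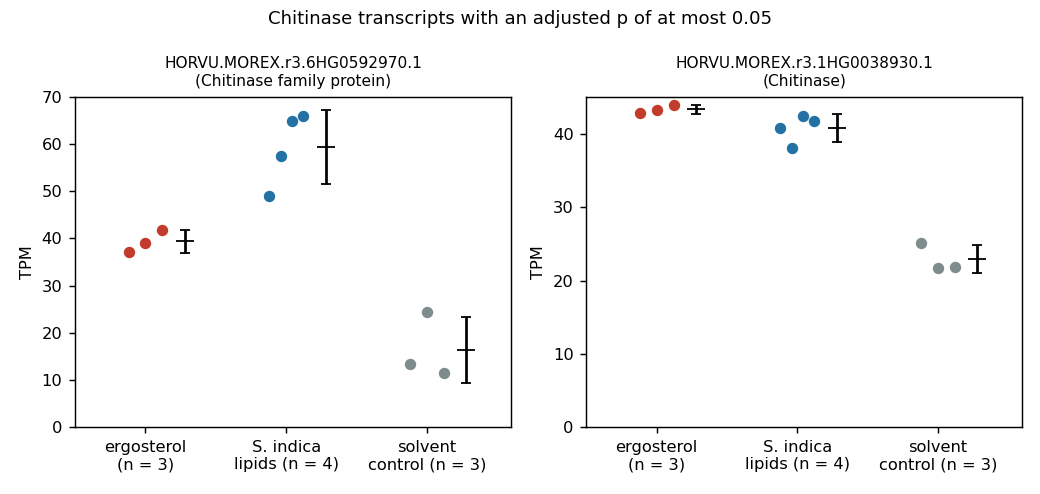
TPM of the chitinase transcripts HORVU.MOREX.r3.6HG0592970.1 (left) and HORVU.MOREX.r3.1HG0038930.1 (right) in each library, with the mean and SD of each treatment beside the points. The solvent control points reach 24.5 TPM on the left and 25.1 TPM on the right, and all treated points lie above them, from 37.2 TPM on the left and 38.1 TPM on the right.

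The 6 most abundant chitinases did not pass the test in any comparison. HORVU.MOREX.r3.1HG0063630.1, the most abundant, had 398, 422 and 440 TPM upon ergosterol, 383, 385, 446 and 499 TPM upon *S. indica* lipids and 448, 392 and 454 TPM in the solvent control. The 3 treatments overlapped fully, and the log2FC was -0.04 (95% interval -0.29 to 0.22) in the ergosterol comparison and -0.02 (-0.25 to 0.22) upon *S. indica* lipids.

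The acidic endochitinase HORVU.MOREX.r3.3HG0300600.1 was next, with 342, 417 and 421 TPM upon ergosterol, 336, 387, 434 and 485 TPM upon *S. indica* lipids and 306, 394 and 306 TPM in the solvent control. Its log2FC was 0.23 (adjusted *p* = 0.430, SE 0.152, limma) upon ergosterol and 0.29 (adjusted *p* = 0.374, SE 0.142) upon *S. indica* lipids. The upper ends of the 95% intervals were 0.57 and 0.60. Solvent control replicate 2, at 394 TPM, lay within the range of each treatment. The other solvent controls, at 306 TPM, lay below both ranges.

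That library was also the highest of the 3 solvent controls for the acidic endochitinase HORVU.MOREX.r3.3HG0277190.1, which had 174, 224 and 220 TPM upon ergosterol, 180, 187, 175 and 230 TPM upon *S. indica* lipids and 145, 252 and 143 TPM in the solvent control. HORVU.MOREX.r3.2HG0178010.3 also had its highest solvent control value in replicate 2, with 222, 261 and 263 TPM upon ergosterol, 200, 226, 277 and 324 TPM upon *S. indica* lipids and 189, 301 and 206 TPM in the solvent control. Their log2FC lay between 0.13 and 0.24 over both treatments (SE 0.187 to 0.205). Solvent control replicate 2 was the highest solvent control library in 13 of 26 tested chitinases, or 50.0%, against 49.1% of all transcripts tested. Ergosterol replicate 1 was the lowest of the 3 ergosterol libraries in 19 chitinases, or 73.1%, against 26.8% of all transcripts tested, and its part in the results was not tested beyond leaving it out.

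HORVU.MOREX.r3.1HG0073370.1 averaged 219 ± 29.8 TPM (SD, n = 3) upon ergosterol, 209 ± 14.8 TPM (n = 4) upon *S. indica* lipids and 204 ± 29.9 TPM (n = 3) in the solvent control, a log2FC of 0.11 (95% interval -0.18 to 0.39) and 0.05 (-0.22 to 0.31). HORVU.MOREX.r3.7HG0742440.1, the last above 100 TPM, averaged 151 ± 5.29 TPM upon ergosterol, 177 ± 20.5 TPM upon *S. indica* lipids and 153 ± 13.4 TPM in the solvent control. Its log2FC was -0.02 (95% interval -0.26 to 0.23) in the ergosterol comparison and 0.20 (-0.02 to 0.43) upon *S. indica* lipids. For each of the 6, a 2-fold change in either direction lay outside the 95% interval in both comparisons.

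Between ergosterol and *S. indica* lipids, 0 of 26 chitinases passed, with or without the limit on log2FC (limma), where 0.00546% of all transcripts did by adjusted *p* alone. At an unadjusted *p* under 0.05 there was 1, HORVU.MOREX.r3.6HG0592970.1. The libraries of the 2 treatments separated in 1 chitinase with ergosterol higher, HORVU.MOREX.r3.1HG0038930.1, and in 1 with ergosterol lower, HORVU.MOREX.r3.6HG0592970.1, against 1.94% and 3.86% of all transcripts tested. For HORVU.MOREX.r3.1HG0038930.1 the groups all but touch, at 42.76 TPM in the lowest ergosterol and 42.43 TPM in the highest *S. indica* lipid library. The 95% interval lay between -1 and 1 for 19 of 26, against 91.4%, so that for most chitinases a 2-fold difference between both treatments lay outside it.

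Over all tested chitinases, the 95% interval of the log2FC lay between -1 and 1 for 17 of 26 upon ergosterol and 19 of 26 upon *S. indica* lipids, or 65.4% and 73.1%, against 85.0% and 88.6% of all transcripts tested. The median half-width of the interval upon ergosterol was 0.45 for the chitinases, against 0.35 over all. Not every interval that passed these limits was wide. That of HORVU.MOREX.r3.1HG0038930.1, which had little spread, ran from 0.70 to 1.09 upon ergosterol. The median log2FC of the 26 was -0.06 upon ergosterol and 0.04 upon *S. indica* lipids, beside -0.08 and -0.04 for all transcripts tested. With median-ratio scaling the ergosterol median was 0.01, so that its sign rests on the scaling.

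**Figure D3:**
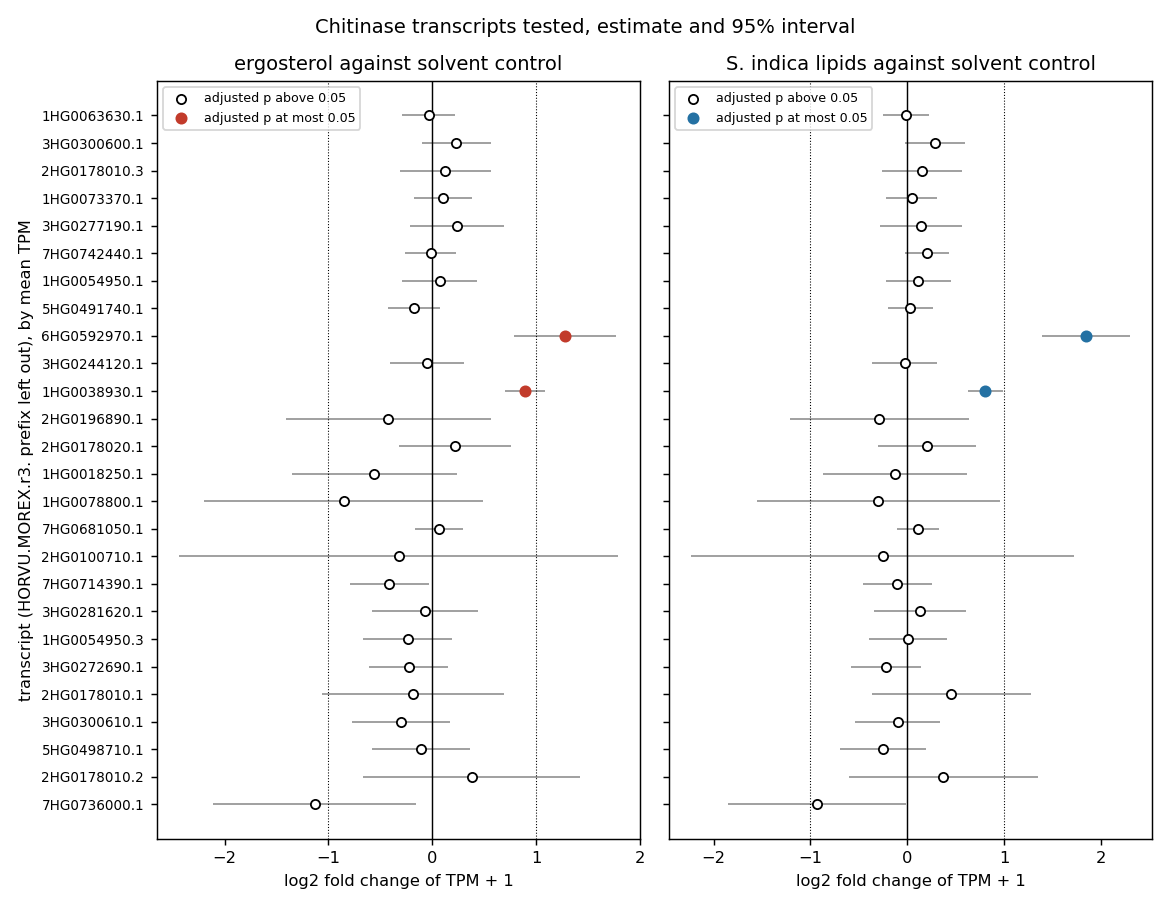
log2FC (points) and 95% intervals (lines) of the 26 tested chitinases upon ergosterol (left) and *S. indica* lipids (right) against the solvent control, from the most abundant (top) to the least; dotted lines mark a log2FC of -1 and 1 and filled points an adjusted *p* of at most 0.05. The filled points are HORVU.MOREX.r3.6HG0592970.1, at 1.28 and 1.85, and HORVU.MOREX.r3.1HG0038930.1, at 0.89 and 0.81.

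The wide intervals belonged to transcripts that differed between replicates of the same treatment. The acidic chitinase HORVU.MOREX.r3.2HG0100710.1 ranged from 2.54 to 14.8 TPM upon ergosterol, from 1.30 to 41.3 TPM upon *S. indica* lipids and from 3.50 to 21.1 TPM in the solvent control, and its spread exceeded that of 99.9% of the transcripts tested. HORVU.MOREX.r3.1HG0078800.1 had 5.71, 16.3 and 9.35 TPM upon ergosterol, 21.9, 11.8, 26.1 and 6.54 TPM upon *S. indica* lipids and 6.85, 21.8 and 38.7 TPM in the solvent control. The other acidic chitinase, HORVU.MOREX.r3.2HG0196890.1, had 25.9, 20.4 and 16.4 TPM upon ergosterol, 35.2, 18.2, 33.8 and 11.98 TPM upon *S. indica* lipids and 55.6, 20.2 and 19.1 TPM in the solvent control. The treatments overlapped for all 3 transcripts. No difference between treatments could be shown for them, and their intervals include a 2-fold decrease upon ergosterol and upon *S. indica* lipids. Those of HORVU.MOREX.r3.2HG0100710.1 also include a 2-fold increase upon either treatment.

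The lowest log2FC of the chitinases were those of HORVU.MOREX.r3.7HG0736000.1, a transcript of low abundance. It had 0.436, 1.82 and 0.745 TPM upon ergosterol, 1.504, 0.258, 3.48 and 0.677 TPM upon *S. indica* lipids and 2.03, 3.08 and 5.01 TPM in the solvent control. Its ergosterol libraries lay below all solvent controls, while the *S. indica* lipid libraries overlapped with them. The log2FC was -1.13 (adjusted *p* = 0.196, SE 0.443, limma) upon ergosterol and -0.93 (adjusted *p* = 0.316, SE 0.415) upon *S. indica* lipids, so neither passed, though both had an unadjusted *p* under 0.05. The remaining chitinase with an unadjusted *p* under 0.05 upon ergosterol was HORVU.MOREX.r3.7HG0714390.1, at a log2FC of -0.41 (adjusted *p* = 0.223, limma), named after its values were seen. The next lowest upon ergosterol were HORVU.MOREX.r3.1HG0078800.1 at -0.85 (SE 0.609) and HORVU.MOREX.r3.1HG0018250.1 at -0.56 (SE 0.361), both with an adjusted *p* above 0.4. In all, ergosterol libraries separated from the solvent controls in 2 chitinases upward and 2 downward, the second downward being the chitinase-like protein HORVU.MOREX.r3.5HG0491740.1, with 37.93 to 39.135 TPM upon ergosterol and 39.137 to 47.18 TPM in the solvent control, groups that all but touch. *S. indica* lipid libraries separated in 2 upward and 0 downward. Of all transcripts tested, 9.09% separated upward and 17.0% downward upon ergosterol, and 6.85% and 6.4% upon *S. indica* lipids.

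Most chitinase loci had a single transcript in the description set, and 2 loci had 3 each. HORVU.MOREX.r3.2HG0178010.3 made up between 95.05% and 97.7% of the TPM of its locus in the treated libraries and between 94.4% and 98.0% in the solvent controls. The minor transcripts HORVU.MOREX.r3.2HG0178010.1 and HORVU.MOREX.r3.2HG0178010.2 had the next highest log2FC upon *S. indica* lipids after the pair above, at 0.46 (SE 0.372) and 0.37 (SE 0.442). At HORVU.MOREX.r3.1HG0054950 the first transcript held between 86.5% and 92.4% in the treated libraries and between 88.9% and 89.5% in the solvent controls. No chitinase locus with several transcripts therefore changed which of them was most abundant.

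The identifiers name the chromosome and give each locus a serial number. By identifier the 38 chitinase loci fall on chromosomes 1H (7 loci), 2H (7), 3H (13), 5H (3), 6H (1) and 7H (7), and on 4H there was none. A run of 6 acidic endochitinase loci on 3H, from HORVU.MOREX.r3.3HG0300600 to HORVU.MOREX.r3.3HG0300690, held very unequal levels. The first averaged 383 TPM over all libraries, the second, HORVU.MOREX.r3.3HG0300610, 4.34 TPM, and the remaining 4 at most 0.0412 TPM. The "Glucan endo-1" locus HORVU.MOREX.r3.3HG0300580, which has 163 TPM, is 2 listed loci before this run. Reads of near-identical copies may have been divided between neighbours, which TPM cannot show, so that single copies of such runs are uncertain. Coordinates, gene symbols and sequences are not given, since 0 of the 38 loci matched the gene table used here.

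The 71 "Glucan endo-1" transcripts were examined in the same way. They summed to 1065 ± 52.1 TPM (SD, n = 3) upon ergosterol, 1066 ± 76.6 TPM (n = 4) upon *S. indica* lipids and 999 ± 93.3 TPM (n = 3) in the solvent control. Over all transcripts tested, 1.23% passed both limits upon ergosterol and 1.26% upon *S. indica* lipids. Of the 41 tested in this group, 0 passed the test in any of the 3 comparisons (limma), with or without the limit on log2FC. At an unadjusted *p* under 0.05 there were 8 upon ergosterol (19.5%, against 19.7% of all transcripts), 6 upon *S. indica* lipids (14.6%, against 15.3%) and 2 between both treatments (4.88%, against 5.32%). These shares are those of the background. The 95% interval of the log2FC lay between -1 and 1 for 37 of 41 in each comparison with the solvent control.

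The most abundant of them, HORVU.MOREX.r3.5HG0501500.1, had 270, 323 and 324 TPM upon ergosterol, 287, 339, 332 and 308 TPM upon *S. indica* lipids and 271, 304 and 344 TPM in the solvent control, a log2FC of -0.00 (95% interval -0.25 to 0.25) and 0.05 (-0.19 to 0.29). The next in abundance, HORVU.MOREX.r3.3HG0300580.1, had log2FC of 0.20 (SE 0.125) and 0.15 (SE 0.117). HORVU.MOREX.r3.1HG0092570.1, HORVU.MOREX.r3.5HG0529760.1 and HORVU.MOREX.r3.3HG0251700.1, at 64.5 to 71.1 TPM on average, lay between -0.08 and 0.36 over both treatments.

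HORVU.MOREX.r3.4HG0358180.1 is named here, with its values known, as the transcript of this group nearest to the limit of the test. It had 64.7, 73.9 and 68.5 TPM upon ergosterol, 62.5, 72.0, 69.8 and 69.8 TPM upon *S. indica* lipids and 46.5, 57.2 and 55.2 TPM in the solvent control. All treated libraries were higher than all solvent controls, with a log2FC of 0.38 (adjusted *p* = 0.0759, SE 0.102, limma) upon ergosterol and 0.37 (adjusted *p* = 0.0618, SE 0.0951) upon *S. indica* lipids. HORVU.MOREX.r3.2HG0138660.1 had log2FC of 0.40 and 0.40 (SE 0.151 and 0.141), and HORVU.MOREX.r3.3HG0284640.1 of 0.38 and 0.43 (SE 0.145 and 0.136), with adjusted *p* between 0.134 and 0.189.

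The lowest value of the group was that of HORVU.MOREX.r3.2HG0121960.2, a minor transcript with 0.389, 1.14 and 0 TPM upon ergosterol, 1.36, 0, 3.72 and 2.73 TPM upon *S. indica* lipids and 7.37, 4.21 and 2.01 TPM in the solvent control. Its log2FC of -1.82 (adjusted *p* = 0.111, SE 0.551, limma) and -1.0 (adjusted *p* = 0.396, SE 0.516) did not pass. A more abundant transcript of that locus, HORVU.MOREX.r3.2HG0121960.1, averaged 11.5 TPM over all libraries. Its log2FC was 0.02 (SE 0.136) upon ergosterol and -0.06 (SE 0.127) upon *S. indica* lipids. HORVU.MOREX.r3.4HG0333780.1 had -0.49 (SE 0.180) and -0.52 (SE 0.168), with every treated library below every solvent control library and adjusted *p* of 0.173 and 0.149. The remaining low values, of HORVU.MOREX.r3.1HG0077840.1 at -0.87 and HORVU.MOREX.r3.5HG0510970.1 at -0.75 upon ergosterol, had SE of 0.435 and 0.627. HORVU.MOREX.r3.5HG0522430.1 had the highest log2FC of the group upon ergosterol, 0.64 (SE 0.364), and HORVU.MOREX.r3.7HG0709640.2 the highest upon *S. indica* lipids, 0.44 (SE 0.280), followed by HORVU.MOREX.r3.2HG0138690.1 at 0.44 (SE 0.246).

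**Figure D4:**
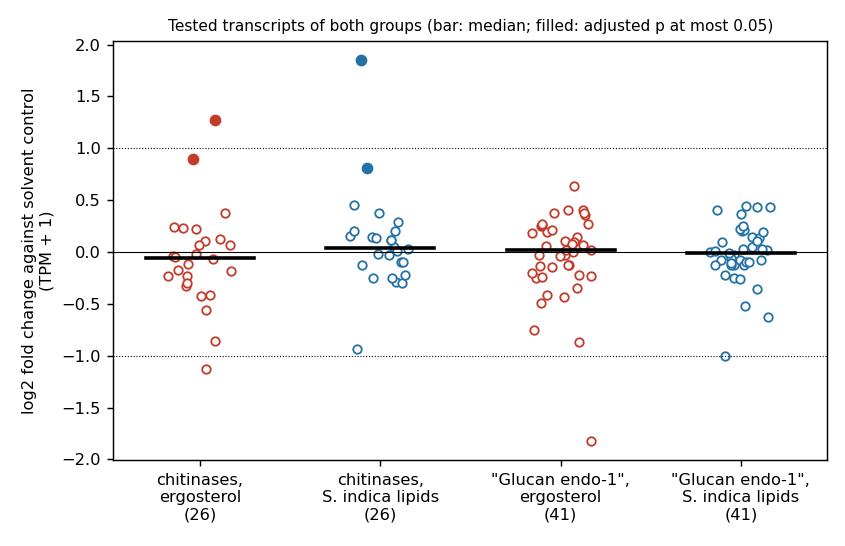
log2FC against the solvent control of the 26 tested chitinases and the 41 tested "Glucan endo-1" transcripts, upon ergosterol and *S. indica* lipids; each point is 1 transcript, bars are medians, dotted lines mark -1 and 1. The medians lie between -0.06 and 0.04, and the filled points, with an adjusted *p* of at most 0.05, are the same 2 chitinases in both treatments.

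Other lists of transcripts, chosen by words in the descriptions, were counted in the same fit. Of 13 tested callose synthases, which make the plant's own beta-1,3-glucan, 0 passed (limma), also at an unadjusted *p* under 0.05, with medians of 0.00 and 0.01. Of 12 tested LysM and chitin-binding transcripts, some of whose proteins bind chitin fragments, 0 passed both limits (limma), and 2, or 16.7%, passed by adjusted *p* alone upon either treatment, against 3.31% of all transcripts tested upon ergosterol and 3.87% upon *S. indica* lipids. At an unadjusted *p* under 0.05 there were 4 of 12 upon ergosterol (33.3%, against 19.7%) and 6 of 12 upon *S. indica* lipids (50.0%, against 15.3%). The 2 by adjusted *p* were the LysM domain GPI-anchored protein HORVU.MOREX.r3.4HG0409440.1, at 118 ± 2.32 TPM upon ergosterol, 129 ± 11.7 TPM upon *S. indica* lipids and 78.1 ± 18.5 TPM in the solvent control, and the peptidoglycan-binding LysM protein HORVU.MOREX.r3.4HG0417740.1, at 37.4 ± 0.371, 35.9 ± 2.89 and 25.8 ± 1.62 TPM in that order. Upon ergosterol their log2FC were 0.62 and 0.52 (adjusted *p* = 0.0489, near the limit, and 0.0111, limma). Upon *S. indica* lipids they were 0.74 and 0.46 (adjusted *p* = 0.0120 and 0.0122, limma). Of 74 tested endoglucanases, beta-glucosidases and xyloglucan enzymes, 0 passed both limits (limma), and 2, or 2.7%, passed by adjusted *p* alone upon either treatment. They were the beta-glucosidase HORVU.MOREX.r3.5HG0510650.3, with a log2FC of 0.78 upon ergosterol and 0.66 upon *S. indica* lipids, and the xyloglucan enzyme HORVU.MOREX.r3.5HG0536200.1, with -0.55 and -0.57. At an unadjusted *p* under 0.05 there were 16 of 74 upon ergosterol (21.6%, against 19.7% of all transcripts tested) and 9 of 74 upon *S. indica* lipids (12.2%, against 15.3%), shares near the background.

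Among 53 tested transcripts of other pathogenesis-related and thaumatin-like proteins, 2 rose upon ergosterol and 2 upon *S. indica* lipids, and 0 fell (limma). Each count is 3.77% of the list, against 1.16% and 1.17% of all transcripts tested. By adjusted *p* alone 6 passed upon ergosterol (11.3%, against 3.31%) and 5 upon *S. indica* lipids (9.43%, against 3.87%). The called transcripts were HORVU.MOREX.r3.5HG0444220.1, with 208 ± 49.4 TPM upon ergosterol, 183 ± 35.5 TPM upon *S. indica* lipids and 44.7 ± 33.4 TPM in the solvent control, and HORVU.MOREX.r3.5HG0444100.1, with 21.2 ± 11.3, 22.0 ± 8.88 and 2.49 ± 1.33 TPM in that order. Their log2FC of 2.22 to 2.73 over both treatments exceeded those of the chitinase HORVU.MOREX.r3.6HG0592970.1, a comparison of estimates that was not tested. HORVU.MOREX.r3.4HG0383530.1, on 4H by its identifier, passed by adjusted *p* alone upon ergosterol only (adjusted *p* = 0.0499, limma). HORVU.MOREX.r3.5HG0444080.1, HORVU.MOREX.r3.5HG0444170.1 and HORVU.MOREX.r3.5HG0444200.1, which passed by adjusted *p* alone upon either treatment, have serial numbers on 5H close to those of the called transcripts. Reads of near-identical copies may have been divided here too, so these transcripts are not shown to be separate changes.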

How the data were processed

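Poly-A RNA of barley roots was sequenced in 3 ergosterol, 4 *S. indica* lipid and 3 solvent control libraries. Trimmomatic 0.39 served the authors for trimming and kallisto 0.46.1 for quantification on MorexV3 cDNA; they deposited TPM per transcript and library. Of 43382 lines, 5420 repeated a transcript with equal values and were dropped. The authors' means, log2FC and sleuth *q*-values in the table were not used.

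log2(TPM + 1) of the 18330 transcripts averaging 1 TPM or more was analysed in limma 3.58.1 (R 4.3.3), all 10 libraries in a single fit with a mean for each treatment and trended variance moderation. The limits on adjusted *p* (Benjamini-Hochberg, all transcripts) and log2FC follow the study. The fit was tested on simulated data.

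The members and lists were chosen with earlier results of these data known. Named were members with an adjusted *p* within 0.05, the 5 most abundant of each group, the 3 highest and 3 lowest log2FC per group and treatment, and called transcripts of the other lists. Also named, after their values were seen, were HORVU.MOREX.r3.7HG0742440.1, HORVU.MOREX.r3.2HG0100710.1, HORVU.MOREX.r3.5HG0491740.1, HORVU.MOREX.r3.4HG0358180.1, HORVU.MOREX.r3.7HG0714390.1, HORVU.MOREX.r3.2HG0121960.1, the LysM, beta-glucosidase and xyloglucan transcripts, the pathogenesis-related transcripts that passed by adjusted *p* alone, HORVU.MOREX.r3.1HG0054950 and the loci of the identifier run. Alternatives covered scaling, pseudocount, filters, weights, a replicate block and each library left out.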

Additional observations from a re-analysis of the deposited data

Results flagged for a closer look

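Among 27 named transcripts, each checked in the 4 *S. indica* lipid libraries, 2 had a library far from the other 3; chance gives such a library in about 1 of 20 groups. For the chitinase HORVU.MOREX.r3.1HG0073370.1 it was replicate 4, at 231 TPM, where the others had 200 to 204 TPM. For the "Glucan endo-1" transcript HORVU.MOREX.r3.3HG0300580.1 it was replicate 1, at 137 TPM, where the others had 174 to 177 TPM. Replicate 1 was the lowest *S. indica* lipid library in 21 of 41 tested "Glucan endo-1" transcripts, or 51.2%, against 20.4% of all transcripts tested. Neither transcript passed the test in any comparison.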

How the results depend on the processing

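The chitinase HORVU.MOREX.r3.6HG0592970.1 passed both limits against the solvent control under all alternatives run. Its log2FC upon ergosterol ranged from 1.07 without solvent control replicate 3 to 1.58 without solvent control replicate 2, with adjusted *p* of 0.000522 to 0.0488, and upon *S. indica* lipids from 1.64 to 2.15 without the same libraries. The count of chitinases called stayed at 1 in both comparisons except where the limit on log2FC was dropped, with 2 upon ergosterol and 2 upon *S. indica* lipids, and with array weights, with 2 upon ergosterol. The second was then HORVU.MOREX.r3.7HG0736000.1, at -1.48 (adjusted *p* = 0.0292, limma), and array weights also called 2 "Glucan endo-1" transcripts upon ergosterol, HORVU.MOREX.r3.1HG0077840.1 at -1.30 and HORVU.MOREX.r3.5HG0522430.1 at 1.13. Over all transcripts that setting called 423 upon ergosterol, against 225. With each library left out in turn, between 0 and 1 "Glucan endo-1" transcripts were called upon ergosterol; without *S. indica* lipid replicate 2, HORVU.MOREX.r3.2HG0121960.2 passed at an adjusted *p* of 0.0498. The cause of these changes was not tested. Same-numbered libraries did not deviate together (*r* of -0.188 to 0.196, where other pairs gave -0.240 to 0.291). No pairing was seen, though 3 or 4 libraries per treatment cannot exclude one. With the replicate number as a block, 1 chitinase was called upon each treatment. Over all transcripts the block called 246 upon ergosterol, against 225, and 186 upon *S. indica* lipids, against 231. Of 1677 alternative values of named transcripts 4 crossed the limits and 0 called values changed sign. TPM keep no read totals, which leaves the precision of low transcripts unknown.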
